A study of Mus musculus with 15 samples.

Results

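The transcripts of 9 genes of cytokine signalling were measured in invariant natural killer T (iNKT) cells from 4 lymphoid tissues. The genes were taken by name from a list of STAT and SOCS genes (Stat3, Stat4, Stat5a, Stat5b, Stat6, Socs1, Socs2, Socs3 and Cish). Their measured values were not used in the choice, but earlier results of these data were known. Each was found among the 48795 genes of the deposited tables. All 9 passed the filter on low counts that left 13600 genes for testing.

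The study compared iNKT cells between tissues by RNA sequencing of bulk sorted cells, with 15 libraries analysed here. There were 4 samples each of thymus, spleen and mesenteric lymph node (mLN) and 3 of inguinal lymph node (iLN), whose replicate 1 was not analysed here. All mice were wild-type C57BL/6 animals aged 6 weeks, and cells were sorted as CD1d tetramer and TCRβ positive and as negative for B220, CD11b, CD11c and CD8. Replicates 3 and 4 form the first batch named in the labels (8 samples) and replicates 1 and 2 the second (7 samples), so that each tissue is in both batches and iLN has 1 sample in the second.

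The labels call the samples biological replicates but do not say whether each came from 1 mouse or a pool, so p-values measure the spread between these samples. In a bulk sample, fewer cells of a type that makes a transcript and less of the transcript per cell cannot be told apart, and iNKT cells hold NKT1, NKT2 and NKT17 subsets in varying shares. Libraries held 1152702 to 8670570 counts, and the smallest was thymus replicate 2. Defining T cell genes were high in every tissue (Cd3e 862 to 1509 CPM, counts scaled to library size and normalized between libraries), and Zbtb16, which encodes the iNKT cell factor PLZF, lay between 78.9 and 269 CPM. Of the gene segments of the iNKT cell receptor, Trav11 lay between 145 and 335 CPM, but Traj18 reached at most 0.342 CPM in any sample. The B cell marker list (8 genes) summed to between 3.65 and 19.1 CPM in the samples of thymus, mLN and iLN and to as much as 170 CPM in spleen, whose median was 15.3.

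Cytokine receptors signal through Janus kinases (JAKs), which phosphorylate STAT proteins that then enter the nucleus and switch on target genes. STAT5A and STAT5B act downstream of the interleukins that share the common γ chain, STAT3 of the IL-6 and IL-10 families, STAT4 of IL-12 and STAT6 of IL-4. Genes of the SOCS family, with Cish, are switched on by STATs and encode inhibitors of the same receptors and kinases, so that their transcripts are often used as a readout of recent cytokine signalling. In iNKT cells, signalling through the IL-2 receptor β chain is known for its role in the survival of the NKT1 subset, and STAT3 for its role in NKT17 cells.

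STAT proteins bind short palindromes, and the known STAT5-responsive promoter of Cish shows them in its sequence. RefSeq promoter windows of 250 bases before to 50 bases after the start (GRCm38.p6) were found for 8 of the 9 genes, 11 windows in all, and searched on both strands for TTCNNNGAA, for the wider TTCNNNNGAA that STAT6 prefers, and for GAAANNGAAA, the core of an interferon-response element. Capitals mark the matches in the stretches below, which are shown because they hold every match found in the 3 SOCS family genes with a window.
Cish, 120 bases from chr9:107296569-107296688, plus strand: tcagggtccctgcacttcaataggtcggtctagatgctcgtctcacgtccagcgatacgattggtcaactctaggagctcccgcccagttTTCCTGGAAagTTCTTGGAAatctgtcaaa
Socs3, 80 bases from chr11:117969467-117969546, minus strand: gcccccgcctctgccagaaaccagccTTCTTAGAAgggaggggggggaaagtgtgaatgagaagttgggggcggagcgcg
Socs1, 80 bases from chr16:10785577-10785656, minus strand: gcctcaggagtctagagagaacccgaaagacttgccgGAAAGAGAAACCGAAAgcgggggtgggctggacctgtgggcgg
Cish held 2 TTCNNNGAA matches, at positions 1 and 12 from the start, and Socs3 held 1 at position -154. Of all 32851 promoter windows, 8.3% held at least 1 such match and 0.457% held at least 2. Socs1 held 2 overlapping GAAANNGAAA matches at positions -83 and -77, and 0.225% of all windows held at least 2, while 3.44% held at least 1. One Stat4 window held GAAANNGAAA at position -97, no member window held TTCNNNNGAA, which 6.95% of all windows held, and the windows of Stat3, Stat5a, Stat5b and Stat6 held none of the 3 motifs.

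Levels of different genes are compared here only per transcript length, in the deposited TPM values. Over the 15 samples, Stat3 had the highest median at 70.8 TPM, followed by Stat4 at 55.6 and Stat6 at 45.8. Stat5b (18.3), Cish (18.2), Socs2 (13.7) and Stat5a (10.9) formed a middle range, and Socs1 (4.63) and Socs3 (1.48) were the lowest. Stat3 was the highest of the 9 genes in 8 samples and Stat4 in the other 7. The effective length that the authors' program assigned to a gene differed between samples, and TPM moves with it. This length ran from 1340 to 4298 bases for Cish, from 715 to 2262 for Socs2 and from 1779 to 4204 for Stat3. The rank of Stat3 and Stat4 in a sample also depends on it. Comparisons of 1 gene between samples therefore use normalized CPM, which has no length in it.

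**Figure D1:**
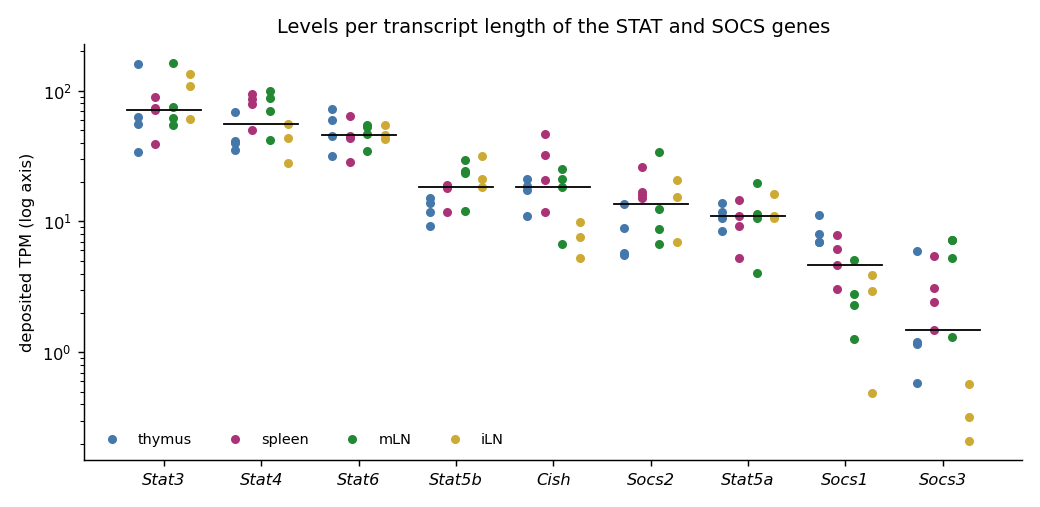
Deposited TPM of the 9 genes on a log axis, 1 point per sample coloured by tissue, with a black line at the median of 15 samples. Medians run from 70.8 TPM for Stat3 to 1.48 for Socs3, and the 3 iLN points of Socs3 are the lowest of its column, while those of Cish (5.22 to 9.94) lie on both sides of 1 mLN point (6.72).

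Differences between tissues were tested for each pair of tissues, for both lymph nodes (LNs) against spleen and thymus, and over the 4 tissues together. A gene was called changed at an edgeR adjusted p under 0.01 with a fold change over 1.5, and over the 4 tissues at the adjusted p alone. Among the 9 genes, 1 call was made, the lower level of Cish in iLN than in spleen, where 1.55% of all tested genes were called and 0.588% were called lower. No member was called in the other pairs, nor for LNs or over the 4 tissues, which does not show that their levels were equal. In those comparisons the background was 1.32% (thymus against spleen), 0.654% (mLN against spleen), 1.6% (mLN against thymus), 1.5% (iLN against thymus), 0.471% (iLN against mLN), 1.72% (LNs) and 3.38% (4 tissues) of genes tested.

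At an unadjusted edgeR p under 0.05, the number of members was 2 for thymus against spleen, 0 for mLN against spleen and 5 for iLN against spleen. It was 3 for mLN against thymus, 5 for iLN against thymus, 3 for iLN against mLN, 4 for LNs and 7 over the 4 tissues. Of all genes, 10.6%, 12.2%, 16.4%, 13.5%, 16.5%, 13.8%, 17.6% and 19.4% passed that limit in the same order. DESeq2 called more of the 9 genes, namely 1, 0, 2, 0, 1, 2, 2 and 3 in that order, against 3.02%, 1.83%, 4.23%, 2.55%, 3.62%, 2.25%, 3.3% and 7.49% of the genes to which it gave an adjusted p. Its calls were for Cish (iLN against spleen, thymus and mLN, LNs and 4 tissues), Socs3 (iLN against spleen and mLN, and 4 tissues), Stat4 (thymus against spleen and 4 tissues) and Socs1 (LNs).

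The samples of the 2 tissues did not overlap for 2 of the 9 genes in thymus against spleen, 1 in mLN against spleen, 5 in iLN against spleen, 1 in mLN against thymus, 5 in iLN against thymus and 2 in iLN against mLN, and for 0 in LNs against spleen and thymus. Of all tested genes, 8.56%, 6.2%, 12.9%, 8.05%, 13.4%, 8.48% and 0.669% did not overlap in the same order. For iLN against spleen these were Stat3 (above) and Stat4, Socs2, Socs3 and Cish (below), and for iLN against thymus Stat3 and Stat5b (above) and Socs1, Socs3 and Cish (below).

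**Figure D2:**
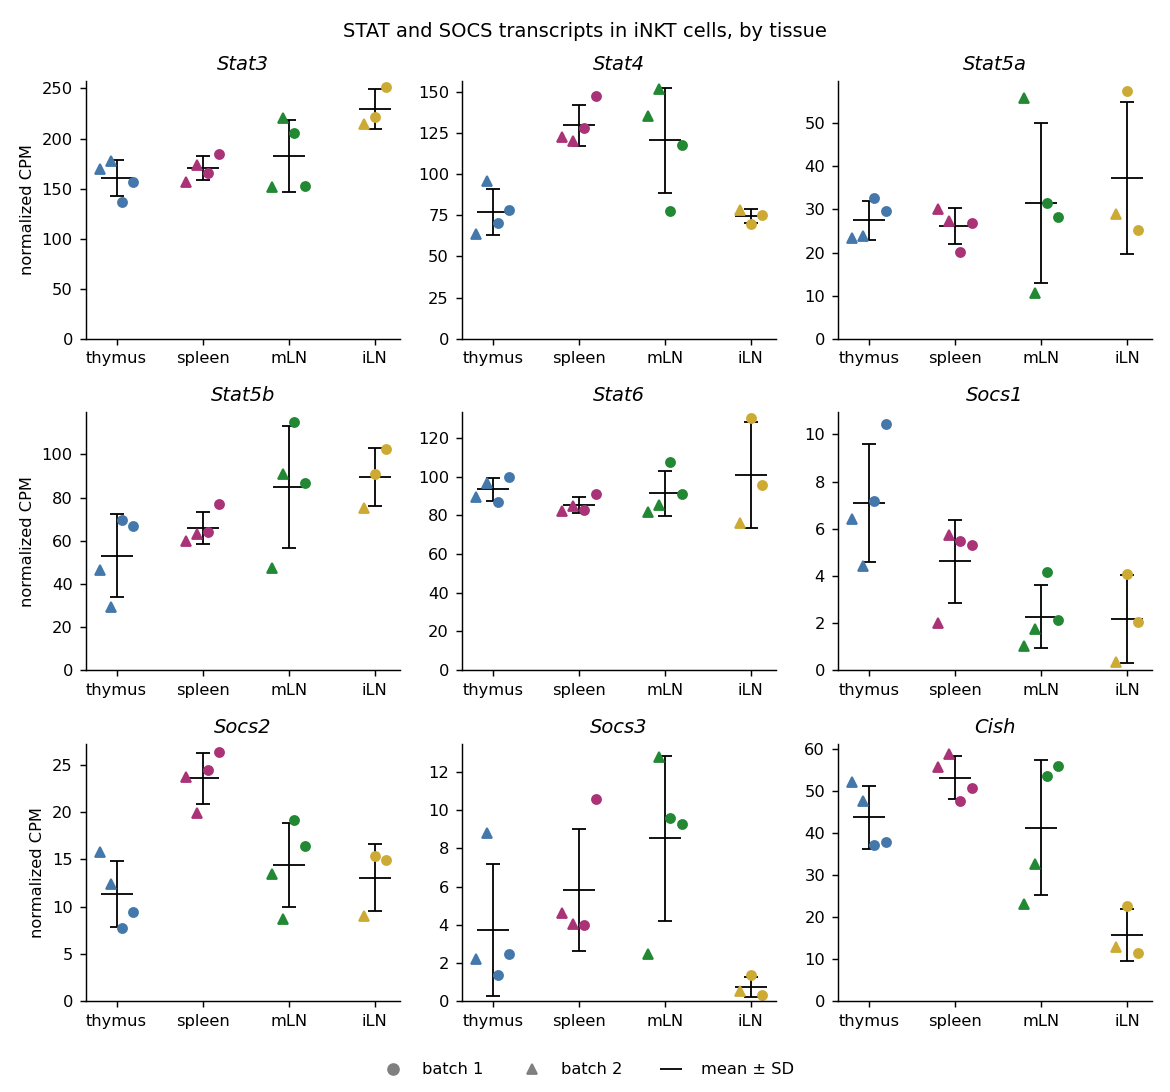
Normalized CPM of each gene in every sample by tissue, with circles for batch 1, triangles for batch 2, and the mean and SD in black (n = 4, and 3 for iLN). Each panel has its own axis from 0, and the iLN samples of Cish (11.5 to 22.8 CPM) lie below every sample of the other tissues (23.1 to 58.9).

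Cish encodes the SH2-domain inhibitor CIS, which binds activated cytokine receptors such as the IL-2 receptor and blocks STAT5 recruitment. The gene lies on the plus strand (chr9:107296026-107302784), and the promoter stretch printed above is its own. Its level was 52.3, 47.8, 37.2 and 37.9 CPM in thymus replicates 1 to 4, 55.8, 58.9, 47.6 and 50.8 in spleen, 23.1, 32.6, 53.7 and 56.1 in mLN, and 12.9, 22.8 and 11.5 in iLN replicates 2 to 4. The iLN samples were the 3 lowest of the 15 and overlapped no other tissue, although the lowest mLN sample was close to the highest iLN sample. The fitted level in iLN was 3.52-fold lower than in spleen (log2 fold change -1.81, SE 0.34, edgeR adjusted p = 0.00376).

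Against thymus the difference in Cish was -1.53 (SE 0.34, edgeR adjusted p = 0.0141) and against mLN -1.41 (SE 0.33, adjusted p = 0.0383). For LNs against spleen and thymus it was -0.97 (SE 0.22, edgeR adjusted p = 0.0166). Over the 4 tissues the edgeR adjusted p was 0.0116, and none of these passed the threshold. Within batch 1 the iLN samples held 11.5 and 22.8 CPM against 47.6 to 50.8 in spleen, and within batch 2 the single iLN sample held 12.9 against 55.8 to 58.9. The mLN samples split by batch, with 53.7 and 56.1 CPM in batch 1 and 23.1 and 32.6 in batch 2. A separate edgeR fit held only LNs or not, batch and their product, with samples of different tissues pooled. Its log2 difference of LNs from spleen and thymus was -0.27 in the first batch and -1.23 in the second. The edgeR test of their difference gave an adjusted p of 0.845. These values are not the LN contrast used elsewhere, because tissues were not fitted apart and the share of iLN samples differed between batches. In TPM, iLN also lay below spleen, at 5.22, 7.67 and 9.94 against 11.9 to 46.3, but overlapped mLN (6.72 in replicate 1). The call for iLN against spleen was lost without iLN replicate 2 (edgeR adjusted p = 0.0314) or 4 (0.022) and on TPM values with limma (0.12 to 0.231), with the fold in the same direction. Without spleen replicate 1, 2 or 4 it was also lost, at edgeR adjusted p = 0.0102, 0.0105 and 0.0115. Annotated antisense transcripts (Gm17040 and Gm17041) overlap 261 and 479 exonic bases of Cish, and reads from the 2 strands of that stretch cannot be told apart if the counting did not use strand, which is not given in the sources used here.

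Socs3 encodes an inhibitor that binds gp130-type receptors and JAKs and limits STAT3 signalling. It was the least abundant of the 9 genes and lies on the minus strand (chr11:117966079-117970047). It measured 2.22, 8.82, 1.38 and 2.47 CPM in thymus, 4.64, 4.06, 3.99 and 10.6 in spleen, 2.46, 12.8, 9.57 and 9.25 in mLN and 0.538, 1.35 and 0.342 in iLN. The 3 iLN libraries held 3, 5 and 2 counts of this gene, the other libraries 5 to 88. The iLN samples lay below all others, and 1 thymus and 1 spleen sample stood far above the rest of their tissue. The log2 difference was -3.54 (SE 0.91) against mLN and -2.99 (SE 0.89) against spleen, with edgeR adjusted p = 0.0579 and 0.0693, which did not pass the threshold. DESeq2 called both, at adjusted p = 0.0017 and 0.0087.

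Socs1 encodes the main inhibitor of interferon-γ signalling in lymphocytes and also acts on IL-2 and IL-15 signalling. The gene is short (chr16:10782240-10785536, minus strand). Its level was 6.42, 4.41, 7.16 and 10.4 CPM in thymus, 1.97, 5.71, 5.48 and 5.29 in spleen, 1.04, 1.74, 4.16 and 2.12 in mLN and 0.359, 4.06 and 2.05 in iLN. All 7 LN samples lay below the lowest thymus sample, while LNs and spleen overlapped through the low spleen replicate 1. The LN contrast was -1.62 (SE 0.50) with edgeR adjusted p = 0.0751, and DESeq2 called it at 0.0087. Counts of Socs1 were between 2 and 55 per library.

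Socs2, known as the feedback inhibitor of growth hormone signalling and switched on by STAT5, stood out in spleen (chr10:95385362-95417180, minus strand). Levels in spleen were 23.7, 19.9, 24.4 and 26.3 CPM. They were 15.8, 12.4, 7.70 and 9.49 in thymus, 13.5, 8.68, 19.1 and 16.4 in mLN and 8.97, 15.3 and 14.9 in iLN. Every spleen sample was above every sample of the other 3 tissues, by a narrow margin over mLN replicate 3. The log2 difference from spleen was -1.02 (SE 0.36) in thymus, -0.73 (SE 0.35) in mLN and -0.90 (SE 0.39) in iLN, with edgeR adjusted p of 0.207, 0.419 and 0.254, so that none was called. In TPM, which also moves with the effective length assigned to Socs2, spleen overlapped both mLN and iLN.

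**Figure D3:**
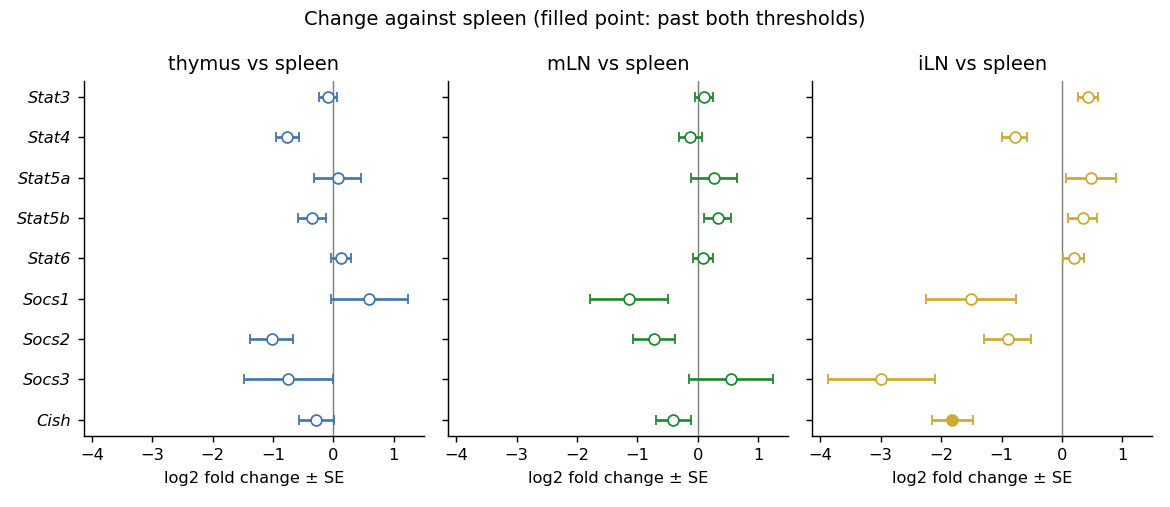
Fitted log2 fold change against spleen with its SE for the 9 genes in thymus, mLN and iLN, where a filled point passed the adjusted p and the fold threshold. Only Cish in iLN (-1.81) is filled, and the other 3 feedback genes in iLN also lie below 0 with wider errors.

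Stat4, which carries the IL-12 signal that drives interferon-γ production, was the STAT gene with the clearest differences between tissues (chr1:51987148-52107189, plus strand). It measured 63.7, 95.6, 70.2 and 78.4 CPM in thymus, 122, 120, 128 and 147 in spleen, 135, 151, 77.7 and 118 in mLN and 78.2, 69.8 and 74.8 in iLN. Spleen lay above all thymus and iLN samples, and mLN ranged over both levels. The log2 difference from spleen was -0.76 (SE 0.19, edgeR adjusted p = 0.0345) in thymus and -0.78 (SE 0.21, adjusted p = 0.0381) in iLN, both short of the threshold, while mLN differed by -0.12 (SE 0.19, adjusted p = 0.865). Over the 4 tissues the edgeR adjusted p was 0.0182. DESeq2 called thymus against spleen, at adjusted p = 0.0072. Exons of an annotated same-strand transcript (Gm28177) cover 1033 of the 3872 exonic bases of Stat4, so that fragments there may be divided between them.

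Stat3, downstream of IL-6, IL-10, IL-21 and IL-23 (chr11:100885098-100939540, minus strand), was highest in iLN. The values were 170, 178, 137 and 157 CPM in thymus, 156, 174, 166 and 184 in spleen, 152, 221, 205 and 152 in mLN and 215, 222 and 252 in iLN. The iLN samples were above all thymus and spleen samples and overlapped mLN, whose samples fell into a higher and a lower pair, 1 of each in each batch. The log2 difference of iLN from thymus was 0.53 (SE 0.17, edgeR adjusted p = 0.0953) and from spleen 0.44 (SE 0.16, adjusted p = 0.17).

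Stat6, downstream of IL-4 and IL-13 (chr10:127642986-127660957, plus strand), varied least between tissues. It measured 89.6, 97.0, 87.0 and 100.2 CPM in thymus, 82.4, 85.1, 82.7 and 91.3 in spleen, 81.6, 85.5, 108 and 91.1 in mLN and 76.1, 131 and 96.0 in iLN. The tissue ranges all overlapped, the iLN samples had the widest spread, and the fitted log2 differences between tissues lay between -0.04 and 0.19 with edgeR adjusted p from 0.67 to 0.96. A difference of the size of its SE (0.16 to 0.18 on the log2 scale) could not be seen with these samples.

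Stat5a and Stat5b, which lie beside each other on chromosome 11 (chr11:100859351-100885169, plus strand, and chr11:100780731-100850724, minus strand), encode close copies that carry the signals of IL-2, IL-7 and IL-15. Their coding sequences were identical at 90.7% of 2343 aligned bases, and 11.6% of all 100-base windows of the Stat5a coding sequence occur unchanged in Stat5b. The longest shared stretch was 324 bases, from position 571 to 894 in both coding sequences. Its first 100 bases are printed because a fragment from it cannot be assigned to either gene by its sequence.
Stat5a and Stat5b: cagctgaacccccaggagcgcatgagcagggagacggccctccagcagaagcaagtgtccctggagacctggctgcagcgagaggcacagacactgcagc
The 3′ exons of Stat5a and Stat3 also overlap, by 72 bases on opposite strands, a small part of either gene.

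Stat5b measured 46.5, 29, 69.7 and 67.0 CPM in thymus, 60.1, 63.2, 64.0 and 76.9 in spleen, 47.2, 90.9, 115 and 86.7 in mLN and 75.4, 91.0 and 102 in iLN. The iLN samples lay above all thymus samples and overlapped spleen and mLN. Its log2 difference was 0.52 (SE 0.16, edgeR adjusted p = 0.0864) for LNs against spleen and thymus, not called. Stat5a measured 23.5, 23.9, 32.7 and 29.7 CPM in thymus, 30.1, 27.4, 20.2 and 26.9 in spleen, 55.8, 10.7, 31.4 and 28.2 in mLN and 29, 57.5 and 25.1 in iLN. All its tissue ranges overlapped, and its edgeR adjusted p was between 0.604 and 0.982 in the pairs and the LN contrast.

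The share of Stat5a in the counts of both genes was 30.2% ± 10.6 (SD, n = 15). It ran from 10.6% (95% exact binomial interval 8.39% to 13.1%, counting error only) in mLN replicate 2 to 54.2% (50.6% to 57.7%) in mLN replicate 1, so that the extremes were 2 samples of the same tissue and batch. Tissue means were 35.5% ± 6.96 in thymus, 28.3% ± 4.24 in spleen, 27.7% ± 18.6 in mLN and 28.7% ± 9.52 in iLN, closer to each other than the samples within LNs. The sum of both genes, which does not depend on the division, was 80.5 ± 23.2 CPM in thymus, 92.2 ± 8.23 in spleen, 117 ± 21.0 in mLN and 127 ± 22.0 in iLN (SD, n = 4, and 3 for iLN). In this sum the lowest iLN sample (104.4 CPM) lay just above the highest spleen (103.7) and thymus (102.5) samples, and the other pairs of tissues overlapped.

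Set against that sum, Cish was at 74.8, 90.3, 36.3 and 39.2 counts per 100 Stat5 counts in thymus, 61.8, 65.0, 56.5 and 49 in spleen, 22.4, 32.1, 36.6 and 48.8 in mLN and 12.4, 15.3 and 8.98 in iLN. The iLN samples were below all others, and every mLN sample was below every spleen sample, though by little for mLN replicate 4. The ratio was not tested.

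**Figure D4:**
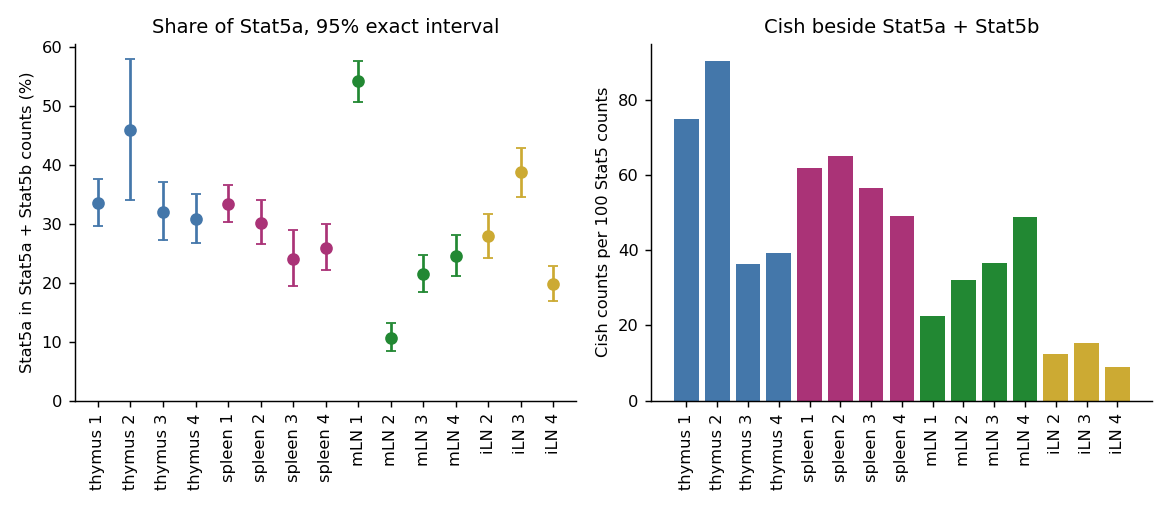
Left, share of Stat5a in Stat5a and Stat5b counts (percent) with the 95% exact interval for each sample; right, Cish counts per 100 Stat5a and Stat5b counts, bars from 0, coloured by tissue. The shares of mLN replicates 1 (54.2%) and 2 (10.6%) are the extremes, and the iLN bars (8.98 to 15.3) are the 3 lowest.

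The order of tissues was read from the means of each gene. Cish ran from spleen over thymus and mLN to iLN, Stat4 and Socs2 were highest in spleen, Socs1 in thymus, Socs3 in mLN, and Stat3, Stat5a, Stat5b and Stat6 in iLN. In none of the 27 pairs of neighbours in these orders was the difference called by edgeR, and the smallest adjusted p was 0.0383, for Cish between mLN and iLN. The order was the same in TPM for 6 of the 9 genes.

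The other genes of the pathway were taken from lists of receptors, kinases, inhibitors and targets. Of 70 such genes, 65 were tested and 17 were called in at least 1 of the 6 pairs, where 3.65% of all tested genes were called in at least 1 pair. These lists were chosen with earlier results of these data known, so the share called is no test of the pathway. Of 5 other STAT and SOCS genes (Stat2, Socs4, Socs5, Socs6, Socs7), none was called in a pair by edgeR or DESeq2, and 0 had an unadjusted edgeR p under 0.05. Of the 4 JAK genes, 1 was called. Jak2, which serves the IL-12, IL-23 and interferon-γ receptors, was lower in thymus than in spleen (log2 fold change -1.03, SE 0.20, edgeR adjusted p = 0.00486), at 156 ± 27.4 against 317 ± 41.9 CPM (SD, n = 4).

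Among 6 tested receptor chains that signal through STAT5, 2 were called between tissues. Il2ra, the α chain of the high-affinity IL-2 receptor (CD25), held 14.9, 5.15, 8.26 and 11.6 CPM in thymus, 103, 138, 118 and 155 in spleen, 110, 116, 86.2 and 101 in mLN and 192, 219 and 314 in iLN. Thymus lay far below the other tissues and iLN above them, while mLN overlapped spleen and was not called against it. The log2 difference of thymus from spleen was -3.58 (SE 0.26, edgeR adjusted p = 1.12e-07), and iLN exceeded thymus by 4.49 (SE 0.28, adjusted p = 2.77e-08). The differences of iLN from spleen (0.91, SE 0.24, edgeR adjusted p = 0.0381) and from mLN (1.22, SE 0.24, adjusted p = 0.0134) did not pass the threshold. Il7r, the IL-7 receptor α chain, rose in iLN against spleen by 1.47 (SE 0.17, edgeR adjusted p = 3.06e-05), from 490 ± 52.2 to 1285 ± 325 CPM, and was also called higher in iLN than in thymus (0.90) and mLN (1.18). Il2rb, the β chain shared by IL-2 and IL-15 receptors, was called lower in LNs than in spleen and thymus (-0.63, SE 0.13, edgeR adjusted p = 0.00734) but in no pair; it was named here because it belongs to the same receptor, after its values were seen.

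**Figure D5:**
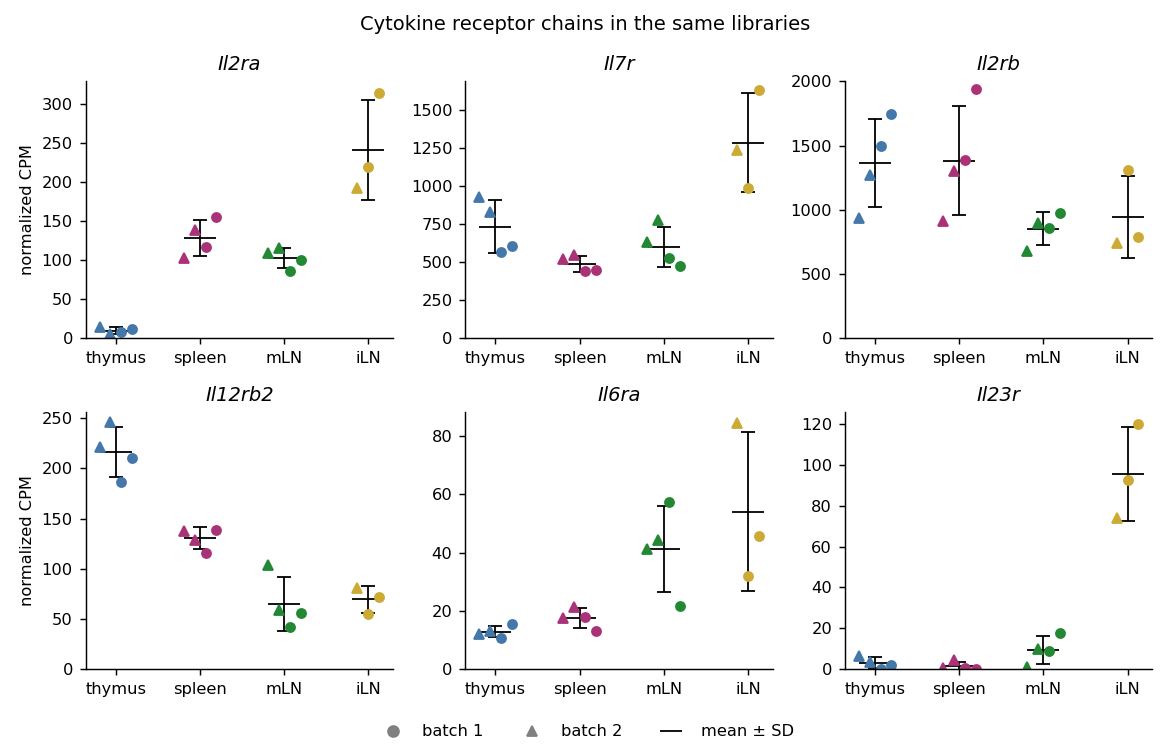
Normalized CPM of 6 receptor chains in every sample by tissue, circles for batch 1, triangles for batch 2, mean and SD in black (n = 4, and 3 for iLN), each axis from 0. Il2ra lies between 192 and 314 CPM in iLN and between 5.15 and 14.9 in thymus, and Il12rb2 lies highest in thymus.

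Of 8 tested chains that signal through STAT3, 3 were called, each higher in LNs. Il6ra, the IL-6 receptor α chain, was 1.64 (SE 0.34) higher on the log2 scale in iLN than in spleen and 2.06 (SE 0.35) higher than in thymus (edgeR adjusted p = 0.00902 and 0.00169). Il6st, which encodes the shared chain gp130, was 1.32 (SE 0.22) higher in mLN than in thymus. Il23r, a marker of NKT17 cells, held 74.1, 92.4 and 120 CPM in iLN against at most 17.7 in any other sample (iLN against spleen, log2 fold change 6.08, SE 0.94, edgeR adjusted p = 0.000882). Of the 2 IL-12 receptor chains, Il12rb2 was lower in mLN (-1.75, SE 0.20) and iLN (-1.58, SE 0.22) than in thymus and also in mLN against spleen (-1.03, SE 0.19), all past the edgeR threshold. The 1 tested chain of the STAT6 list was not called. Of the 4 interferon receptor chains, Ifngr1 was called higher in thymus than in spleen (1.25, SE 0.22) and Ifngr2 higher than in spleen in mLN (2.85, SE 0.53) and iLN (2.70, SE 0.57), from low levels of 0.997 to 4.05 CPM in spleen.

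Of 11 other negative regulators of the pathway, 1 was called. Ptpn6, which encodes the phosphatase SHP-1, was higher in thymus (212 ± 62.2 CPM) than in spleen (61.4 ± 8.32) by 1.75 (SE 0.22, edgeR adjusted p = 9.47e-05), and lower in mLN and iLN than in thymus by a like amount (-1.44 and -1.42). Of 12 genes known to respond to STAT5, 3 were called in a pair. Besides Il2ra they were Bcl2, a survival factor, and Myc, a growth regulator, both higher in thymus than in spleen (0.92, SE 0.18, and 1.34, SE 0.27), the opposite direction to Il2ra. Among 5 tested genes that respond to STAT3, Maf and Junb were called. Junb, called higher in mLN than in thymus, also belongs to the tissue digestion list given below. Of 6 genes that respond to STAT4, 4 were called and in mixed directions, Il18r1 higher in iLN than in spleen (1.40, SE 0.18) and Il18rap lower in mLN than in spleen (-1.17, SE 0.18), with Il12rb2 as above and Furin lower in thymus than in spleen (-1.40, SE 0.25). Of 5 tested genes of the STAT6 list, 1 was called, Maf, higher in iLN than in spleen (0.91, SE 0.17).

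These pathway genes had 52 calls in the pairs and the LN contrast, from 19 genes, and none of the 52 turned direction under the 27 alternative settings, which include leaving out each library. The calls of Il2ra (thymus below spleen, mLN and iLN, and LNs), of Il12rb2 (mLN against thymus, and LNs) and of Il18rap (mLN against thymus) held under all 27, and the other 45 were lost under at least 1. The LN contrast of Il2ra includes the low thymus samples, and its mLN samples overlapped those of spleen. Among those given above, Ifngr2 was called in only 4 of the 27 for iLN and 8 for mLN against spleen, Il6ra in 7 for iLN against spleen, Il12rb2 in 9 for mLN against spleen, Bcl2 in 9 and Myc in 11 for thymus against spleen, and Il2rb in 10 for LNs. Jak2 was called in 13 and Maf in iLN against spleen in 15. Il23r in iLN against spleen was called in 25, and Il7r there and Ptpn6 in thymus against spleen in 24.

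Markers of iNKT subsets differed between iLN, in which Cish and Socs3 were lowest, and spleen. The 7 NKT17 markers summed to 271 to 578 CPM in iLN, 39.5 to 73.6 in mLN, 4.68 to 17.1 in spleen and 12.7 to 22.8 in thymus, and 5 of the 6 tested were called higher in iLN than in spleen. Il17a was at 0 in every spleen and mLN sample. The 8 NKT1 markers summed to 1075 to 1797 CPM in iLN, 1245 to 1633 in mLN, 1616 to 2992 in spleen and 2000.04 to 2984 in thymus, and 4 of 8 were called lower in iLN than in spleen. The NKT2 list summed to 1247 to 1499 CPM in iLN, 1084 to 1548 in mLN, 640 to 902 in spleen and 682 to 960.3 in thymus, with 2 of 8 called higher in iLN than in spleen. Much of this sum was Icos, with a mean of 864 CPM in iLN and 294 in spleen. Means of Slamf6, Cd4 and Il4 were lower in iLN than in spleen, and those of Gata3, Il17rb, Ccr7 and Izumo1r were higher. The median log2 fold change of the NKT2 list was 0.21. Thymus, whose Stat4 samples also lay below those of spleen, overlapped spleen in the sums of all 3 lists. Single markers still differed between these tissues. Of 8 NKT1 markers, 1 was called higher and 1 lower in thymus than in spleen, and 1 of 8 NKT2 markers was called higher. Overlap of the sums therefore does not show equal shares of the subsets. The part of these shifts in the values of the 9 genes was not tested.

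Markers of other cell types and of handling also differed. The red cell list summed to 24.0 to 117 CPM in spleen and to at most 14.7 elsewhere, and the myeloid list to at most 62.9 CPM in spleen and 18.3 elsewhere. The immature thymocyte list reached 64.5 CPM in thymus and at most 13.5 elsewhere, with Rag1 at 0 in every LN sample. NK cell markers summed to at most 18.3 CPM in any sample, and the regulatory T cell list, which includes Il2ra, to 540 to 715 CPM in iLN and 375 to 503 in spleen. Genes that respond to tissue digestion (14 genes) summed to 459 to 621 CPM in mLN and 470 to 769 in iLN, against 182 to 392 in spleen and 252 to 459 in thymus, and 6 of the 11 tested were called higher in LNs. The list includes Fos, Fosb and Nr4a1, which the study reported as genes of T cell activation raised in LN iNKT cells. The study also reported a higher signal of an Nr4a1 reporter and more proliferation in LN iNKT cells than in those of spleen or thymus. It reported higher ICOS and CD25 protein in LN cells than in spleen. Of the transcripts, Il2ra in mLN overlapped spleen. Mean Icos was 406 CPM in mLN and 864 in iLN, against 294 in spleen and 407 in thymus. The study's methods describe enzymatic digestion of LNs but not of spleen or thymus when cells were prepared for flow cytometry, so that, if the sorted cells were prepared in this way, tissue and preparation cannot be told apart.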

How the data were processed

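The authors trimmed reads with cutadapt 1.7.1 and quantified them with RSEM 1.2.31 and Bowtie2 2.2.9 on GRCm38, per the labels. The deposited expected counts are RSEM's estimated counts of fragments per gene, in which a fragment that fits several genes is divided between them. The deposited TPM are those counts per effective transcript length, scaled to the same total in every sample. The deposited FPKM, scaled to length and depth by the authors, were not used. Symbols were matched for 48349 of 48795 genes, and positions came from GENCODE M21 (GRCm38).

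Counts were rounded and fitted with edgeR 4.0.16 (limma 3.58.1, R 4.3.3): filterByExpr, TMM factors (0.755 to 1.18), robust quasi-likelihood, tissue and batch as terms, all 15 samples, Benjamini-Hochberg over 13600 genes. DESeq2 1.42.0, limma on log2(TPM + 1), other filters and scalings, a replicate block and left-out samples were the alternatives. Scripts were tested on simulated counts for thymus against spleen. Of genes changed there by log2 1, the edgeR fit called 8%, and of those changed by log2 2, 43%. Sums, intervals and plots used Python 3.11.15. The 9 genes and all lists were chosen with earlier results of these data known. Some genes of the lists are not reported here. All 9 genes were named, and of each list at most the 4 genes with the smallest adjusted p among those called in a pair. No member was called over the 4 tissues, so no gene of like pattern was sought.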

Additional observations from a re-analysis of the deposited data

Results flagged for a closer look

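For each gene, the lowest and highest sample of each tissue with 4 samples was set against the rest with Dixon's ratio, 27 groups in all, of which chance flags about 1 in 20. Socs1 was far lower in spleen replicate 1 (1.97 CPM) than in the other spleen samples (5.29 to 5.71). Socs3 was far higher in thymus replicate 2 (8.82 CPM), the library with the fewest counts, than in the other thymus samples (1.38 to 2.47). Socs3 was also far higher in spleen replicate 4 (10.6 CPM) than in the other spleen samples (3.99 to 4.64).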

How the results depend on the processing

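Leaving out single libraries was added after the data had been seen (apart from thymus replicate 2), and all other alternatives were planned. In the order thymus against spleen, mLN against spleen, iLN against spleen, mLN against thymus, iLN against thymus, iLN against mLN, LNs and 4 tissues, all genes called numbered 179, 89, 211, 217, 204, 64, 234 and 459. They were 406, 263, 588, 426, 503, 302, 489 and 1077 by DESeq2 and 393, 273, 544, 435, 480, 279, 532 and 1134 with no filter on low counts. They were 87, 13, 74, 92, 92, 29, 82 and 188 by limma on log2(TPM + 1), 71, 12, 54, 73, 79, 20, 70 and 151 with a pseudocount of 0.1, and 70, 4, 64, 72, 75, 28, 64 and 141 with no filter on low TPM. Without the batch term they were 29 for mLN and 129 for iLN against spleen, 123 for iLN against thymus and 40 for iLN against mLN. Leaving out a replicate or library gave 71 to 222, 2 to 99, 51 to 267, 71 to 235, 34 to 236, 19 to 66, 54 to 255 and 138 to 493.

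Of the 9 genes, DESeq2 called 1 for thymus against spleen, 2 for iLN against spleen, 1 for iLN against thymus, 2 for iLN against mLN, 2 for LNs and 3 over 4 tissues. With no filter the numbers were 1 for iLN against thymus, 1 for iLN against mLN, 1 for LNs and 2 over 4 tissues, and limma on TPM called 0 for iLN against spleen. Leaving out samples gave 0 to 1 for iLN against spleen, iLN against thymus, LNs and 4 tissues and 0 elsewhere. Cish in iLN against spleen stayed between -2.20 and -1.64 when samples were left out, with edgeR adjusted p up to 0.091. The call was lost without replicate 2, 3 or 4 of all tissues (edgeR adjusted p = 0.0645, 0.0191 and 0.091).

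Replicate numbers were shared between tissues. Same-numbered samples correlated in their deviations by 0.122 on average (lowest 0.00151, 21 pairs), samples of the same batch with another number by 0.107, and 13 of 15 correlated best with their own number. When the batch term was replaced by a replicate block, all genes called were 174, 70, 175, 204, 160, 62, 203 and 398, and Cish in iLN against spleen stayed called (-1.84, edgeR adjusted p = 0.00775).

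Of 1944 values of single genes under the alternatives, 65 turned direction, in 24 of 72 results, and none of these was called. The 1944 values and 72 results include the tests over the 4 tissues, which have no direction to turn. On TPM with limma, Stat3 in thymus against spleen became 0.0157 or 0.0142, Stat5a in mLN against thymus -0.12 or -0.15, Socs2 in iLN against mLN 0.031 or 0.0413 and Socs2 in LNs 0.0872 or 0.0952. Stat5b in iLN against mLN became -0.000207 with no filter and -0.00729 with the block. When single replicates or libraries were left out, these log2 fold changes took both signs. Stat3 ran from -0.0185 to 0.22 (mLN against spleen). Stat4 ran from -0.28 to 0.0537 (mLN against spleen), -0.12 to 0.0614 (iLN against thymus) and -0.17 to 0.0083 (LNs). Stat5a ran from -0.12 to 0.18 (thymus against spleen), -0.33 to 0.55 (mLN against spleen), -0.0489 to 0.78 (iLN against spleen), -0.36 to 0.46 (mLN against thymus), -0.0447 to 0.63 (iLN against thymus) and -0.23 to 0.72 (iLN against mLN). Stat5b ran from -0.14 to 0.17 (iLN against mLN). Stat6 ran from -0.0013 to 0.12 (mLN against spleen), -0.0393 to 0.35 (iLN against spleen), -0.15 to 0.0133 (mLN against thymus), -0.18 to 0.25 (iLN against thymus), -0.0985 to 0.25 (iLN against mLN) and -0.0923 to 0.18 (LNs). Socs1 ran from -1.02 to 0.13 (iLN against mLN). Socs2 ran from -0.0063 to 0.58 (mLN against thymus), -0.17 to 0.52 (iLN against thymus) and -0.32 to 0.0382 (iLN against mLN). Cish ran from -0.39 to 0.21 (mLN against thymus). With 3 or 4 samples per tissue and 2 to 88 counts per library for Socs1 and Socs3, differences in these genes are the least certain.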
